A study of Rattus norvegicus with 17 samples.

Results

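The genes described are 8 rat genes known as markers of mast cells, selected by symbol from the 17251 genes of the deposited table. They comprise 5 proteases stored in mast cell granules (chymase Cma1, carboxypeptidase Cpa3, the tryptases Tpsab1 and Tpsb2, and mast cell protease Mcpt1), the histamine-forming enzyme Hdc, and the alpha and beta subunits of the high-affinity IgE receptor, Fcer1a and Ms4a2. RNA-seq was performed on meibomian glands (MG), the lipid-secreting glands of the eyelid, dissected from 17 female Sprague-Dawley rats aged 10 to 12 weeks. Wild-type (WT) rats were compared with P1.hMR rats, which carry human NR3C2, encoding the mineralocorticoid receptor (MR), under its proximal P1 promoter. The transgene acts wherever MR is normally made and is not restricted to mast cells or to the gland. Each genotype was studied without treatment (Control WT, n = 4; Control P1.hMR, n = 5) and after UVB exposure of the eyelids for 5 days (UVB WT, n = 3; UVB P1.hMR, n = 5), to ask how UVB and MR overexpression each alter the gland.

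Mast cells are resident immune cells of connective tissue that mature locally under the control of the KIT receptor and its ligand, stem cell factor. They store histamine and neutral proteases bound to the proteoglycan serglycin, and release them when IgE bound to its receptor is cross-linked or when other receptors are triggered. In skin, eyelid and conjunctiva they are of the connective tissue type, which contains chymase, tryptase and carboxypeptidase A3 together, and mast cells are a recognised component of rosacea skin.

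The libraries were alike in composition. TPM, a relative transcript abundance, is a level corrected for gene length and for library total, and it summed to between 804378 and 840817 per library over the listed genes. Between 12372 and 12737 genes reached 1 TPM in each library, libraries of the same group correlated at 0.9916 to 0.9948 on the log2(TPM + 1) scale, and 0 pairs of libraries were identical. The human NR3C2 row read 0 TPM in each of 7 WT rats and 5.31 to 9.31 TPM in the 10 P1.hMR rats. The depth of each library cannot be recovered from TPM. Meibocyte lipid genes dominated each library, with Scd, which encodes stearoyl-CoA desaturase, at 23994 to 31198 TPM, and eyelid muscle was present too, with the skeletal actin gene Acta1 at 530.4 to 976 TPM.

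The mast cell genes were low in this tissue. Averaged over the 17 rats, Cma1 was the most abundant at 4.30 TPM, followed by Cpa3 at 3.81, Tpsab1 at 2.71, Hdc at 2.62 and Tpsb2 at 2.43 TPM. Cma1, the highest of them, stood at the 40.4th percentile of the genes of the table. Both receptor subunits stayed under 1 TPM in every rat, with means of 0.349 TPM for Fcer1a and 0.334 TPM for Ms4a2. The row named Mcpt1, whose identity is uncertain, registered almost nothing. 5 of the 8 genes passed the filter of at least 1 TPM in at least 3 rats and were tested among 13105 genes (Cma1, Cpa3, Tpsab1, Tpsb2 and Hdc), and the other 3 did not. Hdc passed only through the UVB groups, since it was under 1 TPM in all 9 control rats.

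The 250 bases upstream of the transcription start show how the tested genes differ in the letters GATA, the core recognised by GATA transcription factors, among which GATA2 is a regulator of mast cell genes. RefSeq promoter records (build GRCr8, whereas the deposited values rest on rn7) matched 7 of the 8 genes, all but Ms4a2. Each sequence is given 5′ to 3′ on the strand of its gene, with GATA, or TATC where GATA lies on the opposite strand, in capitals. Cpa3 lies on the minus strand at chr2:104673238-104673487, Tpsab1 on the minus strand at chr10:14867303-14867552, Cma1 on the minus strand at chr15:33390134-33390383, Tpsb2 on the plus strand at chr10:14886060-14886309, and Hdc on the minus strand at chr3:134318705-134318954.
Cpa3: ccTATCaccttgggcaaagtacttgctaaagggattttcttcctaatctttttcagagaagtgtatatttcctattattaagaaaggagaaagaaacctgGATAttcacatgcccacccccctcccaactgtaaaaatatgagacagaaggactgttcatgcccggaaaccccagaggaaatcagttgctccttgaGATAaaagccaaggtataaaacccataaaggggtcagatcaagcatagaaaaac
Tpsab1: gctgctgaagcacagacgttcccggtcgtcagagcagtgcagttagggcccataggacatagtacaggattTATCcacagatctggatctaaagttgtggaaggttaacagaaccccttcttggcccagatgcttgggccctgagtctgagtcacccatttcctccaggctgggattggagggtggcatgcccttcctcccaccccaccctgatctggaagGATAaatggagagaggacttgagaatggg
Cma1: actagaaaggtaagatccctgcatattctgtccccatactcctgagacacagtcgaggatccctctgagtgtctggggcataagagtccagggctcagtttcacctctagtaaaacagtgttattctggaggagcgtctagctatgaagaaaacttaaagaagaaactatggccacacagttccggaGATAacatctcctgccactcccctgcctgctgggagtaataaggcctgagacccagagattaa
Tpsb2: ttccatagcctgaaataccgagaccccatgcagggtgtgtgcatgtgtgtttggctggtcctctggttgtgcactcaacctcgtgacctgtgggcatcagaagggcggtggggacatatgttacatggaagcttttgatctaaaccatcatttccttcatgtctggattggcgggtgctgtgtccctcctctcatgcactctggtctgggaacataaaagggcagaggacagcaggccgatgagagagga
Hdc: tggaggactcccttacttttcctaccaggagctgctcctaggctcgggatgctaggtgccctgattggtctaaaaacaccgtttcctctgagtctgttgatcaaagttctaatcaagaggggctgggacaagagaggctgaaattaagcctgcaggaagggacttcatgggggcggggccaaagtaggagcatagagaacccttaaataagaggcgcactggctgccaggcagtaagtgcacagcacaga

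Counted back from the transcription start, GATA began at -248, -150 and -54 in Cpa3, at -179 and -29 in Tpsab1, and at -63 in Cma1, and none was present in the windows of Tpsb2 and Hdc. Fcer1a held it at -92 and -46 and Mcpt1 at -104. The Mcpt1 window was matched by symbol, whereas the identifier of the deposited Mcpt1 row belongs in RefSeq to Vch, a related chymase. Thus 5 of the 7 windows held GATA on either strand, against 55.1% of 27457 RefSeq promoters of the same length. The E-box letters CANNTG, a pattern that reads the same on both strands and can share bases with TATC, were in 5 of the 7 windows, against 65.2% of promoters. With 7 windows these shares are counts alone, and a letter match is not a binding site. Tpsab1 and Tpsb2 are neighbouring protein-coding genes on chromosome 10 in GRCr8, and reads from these related tryptases could have been divided between them.

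After UVB, Cpa3, Tpsab1 and Hdc were called higher in both genotypes, and Cma1 and Tpsb2 were called higher in P1.hMR rats alone. The summed level of the 8 genes averaged 8.31 ± 1.32 TPM (SD, n = 4) in Control WT, 8.51 ± 1.88 TPM (n = 5) in Control P1.hMR, 21.6 ± 4.38 TPM (n = 3) in UVB WT and 28.2 ± 8.14 TPM (n = 5) in UVB P1.hMR. The sum ranged from 6.46 to 10.6 TPM over the control rats and from 16.7 to 42.2 TPM over the UVB rats, so that the treatments did not overlap, whereas the genotypes overlapped within each treatment. Hdc supplied up to 49.3% of the sum in UVB WT, in rat 1. In whole tissue, a change in the number of mast cells and a change in the RNA that each cell contains cannot be told apart.

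**Figure D1:**
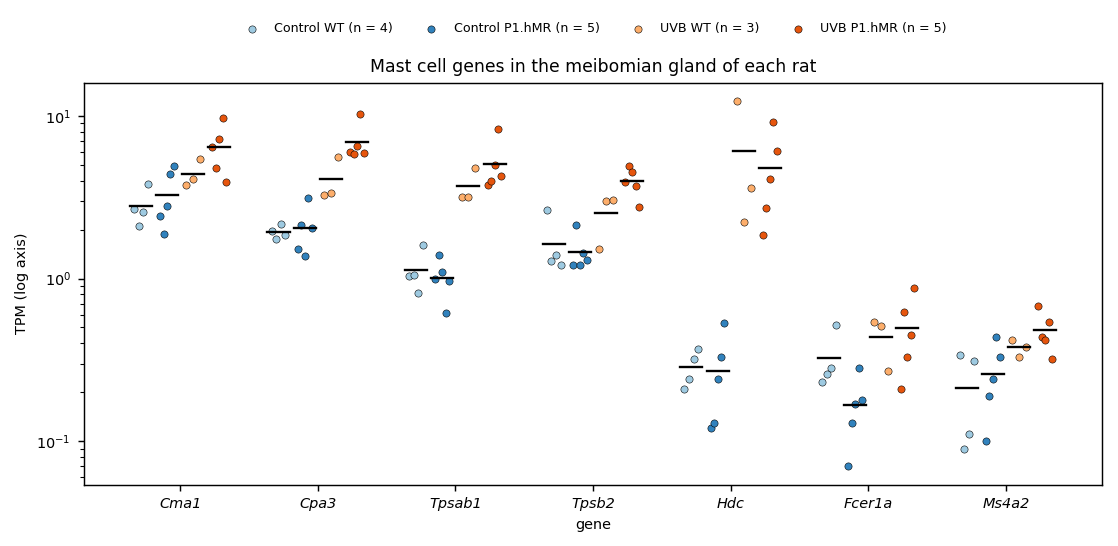
TPM (log axis) of 7 mast cell genes in the MG of each rat; each point is a rat, colours mark the 4 groups and horizontal bars are group means. Mcpt1, at 0 TPM in 16 of 17 rats, is not drawn. Cpa3, Tpsab1 and Hdc of every UVB rat lay above those of every control rat, and Fcer1a and Ms4a2 stayed under 1 TPM.

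Cpa3 encodes carboxypeptidase A3, an exopeptidase of the mast cell granule. It measured 1.95, 1.76, 2.16 and 1.85 TPM in Control WT rats 1 to 4, and 1.53, 2.15, 1.38, 3.13 and 2.06 TPM in Control P1.hMR rats 1 to 5. After UVB it measured 3.28, 3.37 and 5.60 TPM in UVB WT rats 1 to 3, and 6.0, 5.82, 6.50, 10.26 and 5.89 TPM in UVB P1.hMR rats 1 to 5. All 8 UVB rats were above all 9 control rats, and the 5 UVB P1.hMR rats were all above the 3 UVB WT rats. Mean TPM was 2.12 times as high after UVB in WT rats and 3.36 times as high in P1.hMR rats. On the log2(TPM + 1) scale, which understates changes of genes this low, Cpa3 rose by 0.77 (SE 0.20, adjusted p = 0.0129, limma with Benjamini-Hochberg adjustment) in WT and by 1.37 (SE 0.17, adjusted p = 1.49e-05) in P1.hMR rats. The call in WT rats was lost without UVB WT 3 (0.56, adjusted p = 0.0735) and with connective tissue genes as a covariate (0.57, adjusted p = 0.24).

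Tpsab1 encodes an alpha/beta tryptase, a trypsin-like protease that is released as a tetramer. Control WT rats 1 to 4 measured 1.03, 1.05, 0.82 and 1.60 TPM, and Control P1.hMR rats 1 to 5 measured 0.99, 1.39, 1.10, 0.61 and 0.97 TPM. UVB WT rats 1 to 3 measured 3.18, 3.19 and 4.81 TPM, and UVB P1.hMR rats 1 to 5 measured 3.79, 4.00, 4.99, 8.34 and 4.29 TPM. The lowest UVB value, 3.18 TPM, was far above the highest control value, 1.60 TPM, and both genotypes overlapped within each treatment. Mean TPM was 3.31 times the control mean in WT and 5.02 times in P1.hMR rats, the largest ratios among the 4 detected proteases. Its log2 fold change reached 1.15 (SE 0.21, adjusted p = 0.00137, limma) in WT and 1.56 (SE 0.17, adjusted p = 5.92e-06) in P1.hMR rats.

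Tpsb2 encodes the second tryptase, beta 2. It stood at 2.65, 1.29, 1.40 and 1.22 TPM in Control WT rats 1 to 4 and at 1.22, 2.13, 1.21, 1.43 and 1.31 TPM in Control P1.hMR rats 1 to 5. UVB WT rats 1 to 3 were at 1.52, 2.99 and 3.05 TPM, and UVB P1.hMR rats 1 to 5 at 3.92, 4.90, 4.51, 3.73 and 2.75 TPM. In P1.hMR rats the treatments did not overlap, whereas in WT rats Control WT 1 exceeded UVB WT 1. The log2 fold change was 1.01 (SE 0.17, adjusted p = 0.000245, limma) in P1.hMR rats, a rise of 2.71 times in mean TPM. In WT rats it was 0.41 (SE 0.20, adjusted p = 0.161), which did not pass, and it passed when either of those WT rats was left out (0.58, adjusted p = 0.0402, without Control WT 1; 0.64, adjusted p = 0.0433, without UVB WT 1).

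Cma1 encodes chymase 1, a protease of the mast cell granule. Its values were 2.69, 2.12, 2.55 and 3.81 TPM in Control WT rats 1 to 4 and 2.43, 1.89, 2.79, 4.39 and 4.95 TPM in Control P1.hMR rats 1 to 5. They were 3.76, 4.07 and 5.44 TPM in UVB WT rats 1 to 3 and 6.49, 4.82, 7.27, 9.76 and 3.94 TPM in UVB P1.hMR rats 1 to 5. The treatments overlapped in both genotypes, with 2 of 3 UVB WT rats and 3 of 5 UVB P1.hMR rats above the highest control of their genotype. Cma1 rose in P1.hMR rats by 0.80 on the log2 scale (SE 0.22, adjusted p = 0.00834, limma), to 1.96 times the control mean, and in WT rats its difference of 0.52 (SE 0.26, adjusted p = 0.168) did not pass.

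Hdc encodes histidine decarboxylase, which makes histamine from histidine in mast cells and basophils, and which other myeloid cells can also express. It was 0.21, 0.24, 0.32 and 0.37 TPM in Control WT rats 1 to 4 and 0.12, 0.13, 0.24, 0.33 and 0.53 TPM in Control P1.hMR rats 1 to 5. After UVB it was 12.35, 2.23 and 3.59 TPM in UVB WT rats 1 to 3 and 1.86, 2.70, 4.08, 9.16 and 6.10 TPM in UVB P1.hMR rats 1 to 5. Every UVB rat was above every control rat, but the UVB rats themselves were widely spread, from 1.86 to 12.35 TPM. Hdc entered the fit only through the UVB groups, where it was high. Mean TPM was 21.3 times as high in WT rats and 17.7 times in P1.hMR rats, with log2 fold changes of 2.18 (SE 0.41, adjusted p = 0.00179, limma) and 2.05 (SE 0.34, adjusted p = 0.000207). Without UVB WT 1, the highest of all rats, Hdc in WT still rose by 1.58 (adjusted p = 0.00759), and its mean TPM was then 10.2 times the control mean.

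Fcer1a and Ms4a2, the receptor subunits through which IgE arms mast cells and basophils, were not tested among the 13105 genes because of their low level. Fcer1a was 0.23, 0.26, 0.28 and 0.52 TPM in Control WT, 0.07, 0.13, 0.17, 0.28 and 0.18 TPM in Control P1.hMR, 0.54, 0.51 and 0.27 TPM in UVB WT, and 0.21, 0.62, 0.33, 0.45 and 0.88 TPM in UVB P1.hMR rats. Ms4a2 was 0.34, 0.09, 0.11 and 0.31 TPM in Control WT, 0.10, 0.19, 0.24, 0.44 and 0.33 TPM in Control P1.hMR, 0.42, 0.33 and 0.38 TPM in UVB WT, and 0.68, 0.44, 0.42, 0.54 and 0.32 TPM in UVB P1.hMR rats. Treated and control rats overlapped for both genes in both genotypes. In a limma fit without the filter, Fcer1a differed by 0.35 (adjusted p = 0.0178) and Ms4a2 by 0.23 (adjusted p = 0.0387) in P1.hMR rats, both under the fold change threshold of 0.5, and adjusted p was 0.564 and 0.214 in WT rats. In that fit, 14.2% of genes were higher at an adjusted p under 0.05 in P1.hMR rats with no fold change threshold, and 8% in WT rats.

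Mcpt1 was listed at 0 TPM in 16 of 17 rats and at 0.08 TPM in UVB P1.hMR 3. The numeric gene identifier of that row belongs in RefSeq to Vch, a related chymase, whereas the identifiers and symbols of the other 7 genes matched, so that the row may not represent Mcpt1. Mcpt1l1 lies beside the gene that RefSeq names Mcpt1, and RefSeq lists Mcpt1 and rMCP-1 as synonyms of Mcpt1l1. The gene that RefSeq names Mcpt1 has both rMCP-1 and rMCP-2 among its synonyms. Mcpt1l1 was at 7.91 to 25.6 TPM, with a mean of 12.7 TPM over the 17 rats that exceeded those of the 8 genes. The sequences of Mcpt1 and Mcpt1l1 were not compared here. If they are alike, reads could have been assigned to either gene, and the level of Mcpt1 itself is uncertain.

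A UVB response was called where limma gave an adjusted p under 0.05 and a log2 fold change of 0.5 or more in size. In WT rats, 3 of the 5 tested genes were called higher (Cpa3, Tpsab1 and Hdc), where 3.92% of all 13105 genes were called higher. In P1.hMR rats, all 5 tested genes were called higher, against 5.05% of all genes. The shares of 3.92% and 5.05% also stand beside genes called higher in the other lists below. Averaged over genotypes, the same 5 genes were called higher, against 4.6% of all genes. Over the 8 genes without the filter, the median log2 difference reached 0.47 for WT and 0.90 for P1.hMR rats, where the median over all genes was 0 and -0.01. Because the filter let Hdc through only where it was high, these counts describe the genes and do not measure how mast cell genes behave as a class.

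**Figure D2:**
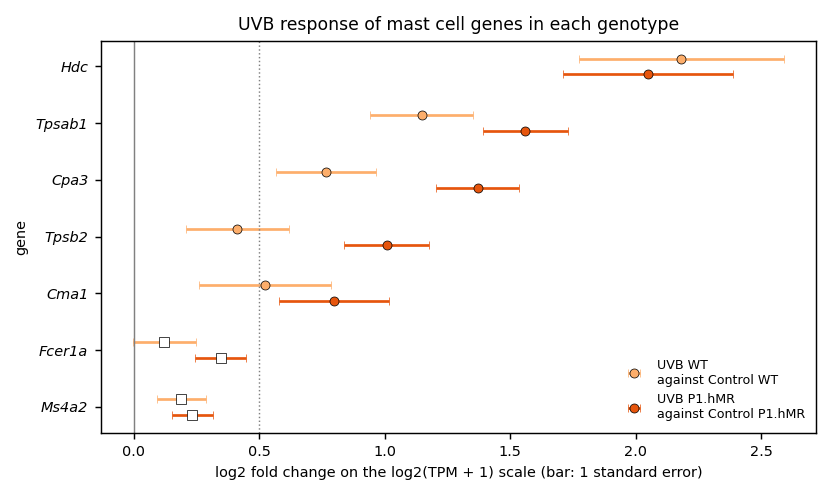
Log2 fold change after UVB (log2(TPM + 1) scale, bars 1 standard error) of 7 mast cell genes in WT rats (light) and P1.hMR rats (dark). Circles are genes tested after the filter and open squares genes fitted without it; the dotted line is the threshold of 0.5. Hdc lay furthest right at 2.18 and 2.05, and Tpsab1, Cpa3, Tpsb2 and Cma1 each had the higher value in P1.hMR rats.

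Exact permutation tests over rats were made beside limma. Between 3 UVB WT and 4 Control WT rats the smallest two-sided p that an exact permutation test can give is 0.0571, so that no gene could pass 0.05, and Cpa3, Tpsab1 and Hdc stood at that limit. In P1.hMR rats, Cpa3, Tpsab1, Tpsb2 and Hdc stood at the smallest p of the exact test, 0.00794, with Cma1 at 0.0397, Fcer1a at 0.0159 and Ms4a2 at 0.0556. Averaged over genotypes, permuting UVB within each genotype gave an exact p of 0.000227 for Cpa3, Tpsab1 and Hdc, the smallest possible. The groups did not overlap for 3 of the 8 genes in WT rats, where this held for 11.3% of all genes in the upward direction, and for 4 of the 8 in P1.hMR rats, against 10.4% of all genes. All 8 UVB rats exceeded all 9 control rats for Cpa3, Tpsab1 and Hdc, as for 4.3% of all genes.

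MR overexpression without UVB was not accompanied by a detectable difference in these genes. Control P1.hMR and Control WT rats overlapped for each of the 8, the log2 differences of the 5 tested genes lay between -0.08 for Tpsb2 and 0.14 for Cma1, and the adjusted p was 0.998 for each in limma. None was called higher or lower, where 0.00763% of all genes were called higher and 0% lower, and 0 of the 5 had an unadjusted p under 0.05, as had 4.03% of all genes. Over the 7 genes above 0 in these groups, the exact permutation p ranged from 0.0635 for Fcer1a to 0.921 for Cpa3. For Cma1 the standard error of that difference was 0.23, so that moderate differences could have been missed.

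After UVB, the granule proteases had higher means in P1.hMR than in WT rats, but no difference passed the test. Cpa3 was 1.69 times as high in mean TPM, and its 5 UVB P1.hMR values, from 5.82 TPM, all exceeded the 3 UVB WT values, up to 5.60 TPM, by a gap smaller than the spread within either group. Its log2 difference was 0.64 (SE 0.19, unadjusted p = 0.0042, adjusted p = 0.28, limma), and the exact permutation p was 0.0357, the smallest possible for 3 and 5 rats. Such a separation was seen in 1.55% of all genes. Tpsb2 differed by 0.51 (SE 0.20, adjusted p = 0.382), Cma1 by 0.42 (SE 0.25, adjusted p = 0.594) and Tpsab1 by 0.34 (SE 0.20, adjusted p = 0.587), with overlapping groups. Hdc did not share this order, with a log2 difference of -0.16 (SE 0.39, adjusted p = 0.922) that rested on UVB WT 1 and became 0.44 without it. None was called, where 0.0153% of all genes were called higher and 0.00763% lower, and 2 of the 5 had an unadjusted p under 0.05, as had 10.3% of all genes.

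The difference between the UVB responses of the genotypes was tested directly as an interaction. It was 0.60 (SE 0.26, unadjusted p = 0.0333) for Cpa3 and 0.59 (SE 0.27, unadjusted p = 0.0394) for Tpsb2, both at an adjusted p of 0.711 in limma, with exact permutation p of 0.0848 and 0.0805. For Tpsab1 it was 0.41, for Cma1 0.28 and for Hdc -0.13, the lowest adjusted p among them being 0.794. None of the 5 was called, as 0% of all genes, and 6.92% of all genes had an unadjusted p under 0.05. Thus Tpsb2 and Cma1, whose UVB response was called in the P1.hMR genotype alone, were not shown to respond differently between the genotypes. The same holds for genes of the other lists below that were called in 1 genotype alone. Averaged over treatments, Cpa3 differed between genotypes by 0.33 (unadjusted p = 0.0203, adjusted p = 0.561, limma). It was the single tested gene of the 5 with an unadjusted p under 0.05, as had 7.61% of all genes, and no mast cell gene was called, where 0.00763% of all genes were called higher and 0% lower.

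The mean shares of Cma1 and Tpsab1 in the protease signal differed between treatments. Among the 4 detected proteases, Cma1 supplied 37.0% ± 5.6 (SD, n = 4) of the summed TPM in Control WT and 41.3% ± 10.5 (n = 5) in Control P1.hMR, and 30.2% ± 1.6 (n = 3) and 28.4% ± 4.0 (n = 5) after UVB. Tpsab1 supplied 15.0% ± 3.4 and 13.6% ± 5.1 in the controls, and 25.3% ± 1.8 and 22.4% ± 3.2 after UVB. The lowest Tpsab1 share after UVB was 18.8% and the highest control share 18.9%, so that the treatments overlapped slightly. Cma1 shares overlapped in P1.hMR rats, at 25.0% to 53.3% in control and 23.4% to 32.1% after UVB. In WT rats they did not, at 32.3% to 44.9% and 28.8% to 32.0%. Cpa3 stayed between 25.9% and 30.9% and Tpsb2 between 17% and 21.8% in group means. Cma1 was the most abundant of the 8 genes in 8 of 9 control rats and Cpa3 in the remaining rat. In the 8 UVB rats the most abundant was Cma1 in 3, Cpa3 in 3 and Hdc in 2. These shares are descriptions without a test.

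**Figure D3:**
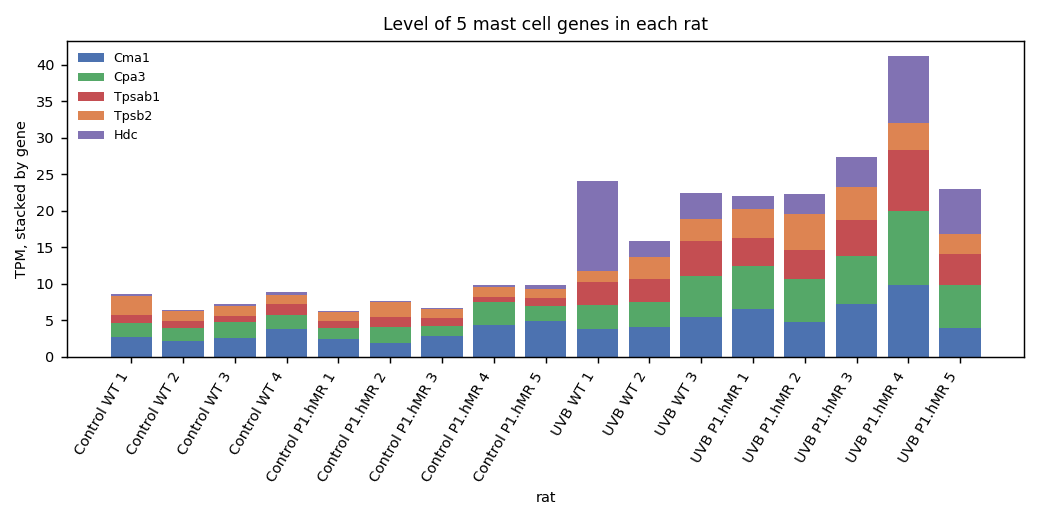
TPM of Cma1, Cpa3, Tpsab1, Tpsb2 and Hdc stacked for each of the 17 rats. The bars of the 8 UVB rats are taller than those of the 9 control rats, UVB P1.hMR 4 is the tallest, and Hdc makes up the largest part of UVB WT 1.

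Individual rats within a group did not rank alike for every gene. UVB P1.hMR 4 was highest of its group for Cma1, Cpa3, Tpsab1 and Hdc, but not for Tpsb2, with a mean deviation of 0.54 from the group mean on the log2 scale. Without it all 5 tested genes were still called in P1.hMR rats, Cpa3 by 1.24 (adjusted p = 2.87e-05, limma) and Tpsab1 by 1.39 (adjusted p = 5.77e-06). After group means were removed, 9 of the 10 pairs of tested genes had a positive Pearson r over 17 rats, with a median of 0.24. Cma1 and Cpa3 were the most closely related (r = 0.62, permutation p = 0.0222; Spearman rho = 0.62, permutation p = 0.0254; adjusted p over 10 pairs 0.222 and 0.127), with r = 0.54 without the 2 rats furthest from the median for Cma1. Tpsb2 and Hdc were inversely related (r = -0.58, permutation p = 0.0477; rho = -0.65, permutation p = 0.0116; adjusted 0.238 and 0.116), with r = -0.68 without the 2 rats furthest from the median for Tpsb2. With each rat left out in turn, r ranged from 0.482 to 0.729 for Cma1 and Cpa3 and from -0.667 to -0.347 for Tpsb2 and Hdc. No pair passed the adjustment.

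The genes whose residual levels most resembled the mean of the 5 tested genes over the 17 rats were Dock4 (r = 0.92), Stxbp6 (0.85), Cdca7 (0.84), Lrrk1 (0.84), Rab11fip1 (0.83), Sfrp1 (0.82), Rnps1, Atr, Fgfrl1 and Grip1 (0.81 each). These correlations are given as a description, since 10 genes with the highest value were taken from 13105 and all share the same libraries. For comparison, r was 0.70 for Mcpt1l1, 0.48 for serglycin gene Srgn, 0.42 for Kit, 0.37 for Gata2, 0.37 for Fcer1g and 0.02 for Csf2rb.

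Among other granule genes, 5 of the 21 listed were in the table and 2 were tested. Srgn, encoding the serglycin core on which granule proteases are packed, rose in both genotypes, by 0.76 (SE 0.17, adjusted p = 0.00504, limma) in WT and 0.90 (SE 0.14, adjusted p = 0.000121) in P1.hMR rats, from 4.42 to 6.67 TPM over control rats to 6.72 to 13.1 TPM over UVB rats. Mcpt1l1 rose in P1.hMR rats by 0.69 (SE 0.18, adjusted p = 0.00672) and differed by 0.33 (SE 0.22, adjusted p = 0.297) in WT rats. Its interaction was not called. Mcpt2, the mucosal mast cell protease, was not analysed here. Srgn is also made by macrophages and other blood-derived cells.

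Among genes of mast cell identity and survival, 12 were tested and 1 was called higher in each genotype, Csf2rb, the shared beta chain of the IL-3, IL-5 and GM-CSF receptors, with log2 fold changes of 1.32 (adjusted p = 0.000705, limma) in WT and 1.07 (adjusted p = 0.000214) in P1.hMR rats. Kit, the stem cell factor receptor, was at 15.1 to 21.8 TPM in control and 17.1 to 25.8 TPM in UVB rats, with differences of 0.37 (adjusted p = 0.0557) in WT and 0.13 (adjusted p = 0.379) in P1.hMR rats. Kitlg, its ligand, differed by 0.09 and 0.25, and the transcription factor gene Gata2 by 0.21 and 0.23, none of them called. Il1rl1, the IL-33 receptor, was at 0.17 to 0.49 TPM in control and 0.34 to 0.95 TPM in UVB rats and was not tested. Its ligand Il33, an epithelial alarmin, differed by -0.39 (adjusted p = 0.114) and -0.38 (adjusted p = 0.0403) and was not called. Kit is shared with melanocytes, and Pmel and Tyrp1, genes of pigment cells, were at 18.3 to 65.1 TPM in these libraries.

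Along the IgE receptor pathway, 13 of 15 listed genes were tested and 1 was called within a genotype. Gab2, a signalling adaptor, fell by 0.57 on the log2 scale in WT rats (adjusted p = 0.00398, limma), and differed by -0.42 (adjusted p = 0.00379) in P1.hMR rats, short of the fold threshold. Over all 13105 genes, 522 were called lower in WT rats. Fcer1g, the gamma chain that the receptor shares with other Fc receptors of myeloid cells, differed by 0.52 (adjusted p = 0.228) and 0.59 (adjusted p = 0.0717) and was called only in the average over genotypes (0.56, adjusted p = 0.0276). The gamma chain gene was at 10.2 to 36.7 TPM while the mast cell subunits Fcer1a and Ms4a2 stayed at 0.07 to 0.88 TPM.

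In the histamine pathway, Hdc was the gene called of 3 tested in each genotype, and it entered the fit only through the UVB groups. Over all genes, 3.92% were called higher in WT and 5.05% in P1.hMR rats. Slc18a2, the vesicular transporter that loads histamine into granules, was at 2.82 to 6.46 TPM and differed by 0.31 (adjusted p = 0.176, limma) and 0.15 (adjusted p = 0.375). The histamine receptor gene Hrh3 was at 21.8 to 39.8 TPM with no call, Hrh1 at 0.22 to 0.76 TPM, and Hrh4 and the degrading enzymes Hnmt and Aoc1 at no more than 0.09 TPM.

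Of the lipid mediator genes, 8 were tested. The cyclooxygenase genes Ptgs1 and Ptgs2 rose in both genotypes, Ptgs1 by 1.20 in each (adjusted p = 2.99e-05 and 1.08e-06, limma) and Ptgs2 by 1.13 (adjusted p = 0.00277) and 1.46 (adjusted p = 2.53e-05). Ptgs2 was at no more than 0.28 TPM in control rats and, like Hdc, passed the filter only through the UVB groups. Ptgds, a prostaglandin D synthase found mainly outside mast cells, fell by 1.56 (adjusted p = 0.000141) and 0.97 (adjusted p = 0.000281), whereas Hpgds, the hematopoietic prostaglandin D synthase of mast cells, differed by 0.22 (adjusted p = 0.526) and 0.19 (adjusted p = 0.452). Ltc4s, leukotriene C4 synthase, fell in P1.hMR rats by 0.90 (adjusted p = 0.000778, limma), with 0.97 to 1.51 TPM after UVB against 2.06 to 4.30 TPM. In WT rats its difference was 0.00 (adjusted p = 0.999, limma). The interaction was not called for any gene of this list, so the genotypes were not shown to differ in their response.

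Among genes of the angiotensin and endothelin systems and the tryptase receptor gene, 1 of 6 tested was called. The endothelin receptor gene Ednrb rose by 1.73 (adjusted p = 1.81e-05, limma) in WT and 2.12 (adjusted p = 1.27e-07, limma) in P1.hMR rats. F2rl1, encoding the tryptase-sensitive receptor PAR2, differed by 0.30 (adjusted p = 0.131) and 0.03 (adjusted p = 0.87). Angiotensinogen (Agt), Ace, Edn1 and Ednra were not called. Of the type 2 cytokine and alarmin list, 2 of 8 genes were tested, Il33 and Tslp, and none was called.

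**Figure D4:**
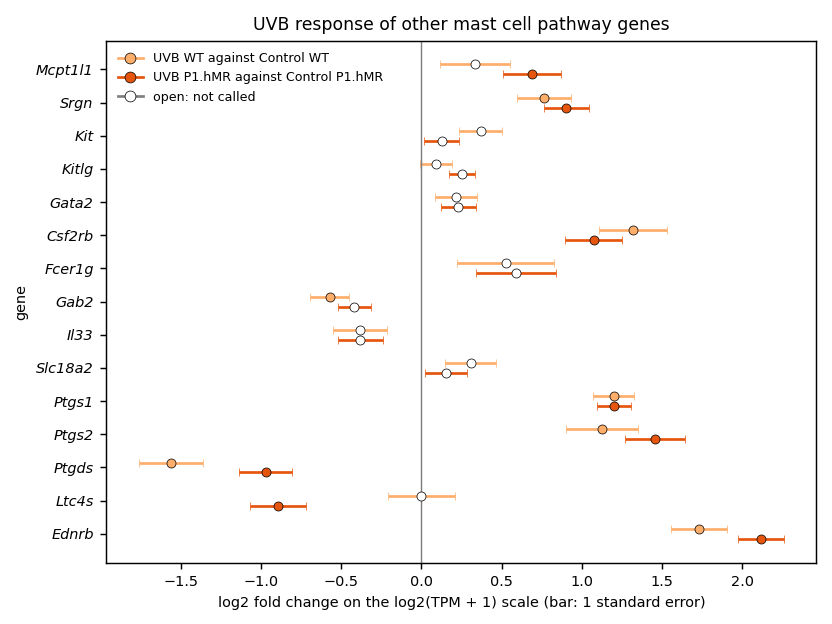
Log2 fold change after UVB (log2(TPM + 1) scale, bars 1 standard error) of 15 genes from the other gene lists in WT rats (light) and P1.hMR rats (dark). Filled circles passed both thresholds. Srgn, Csf2rb, Ptgs1, Ptgs2 and Ednrb were higher and Ptgds lower in both genotypes, while Kit, Kitlg, Gata2, Fcer1g, Il33 and Slc18a2 have open circles.

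Markers of other cell types moved with UVB alongside the mast cell genes. Of 10 macrophage genes, 6 were called higher in each genotype (C1qa, C1qb, C1qc, Cd14, Cd163 and Mrc1), Cd163 by 2.55 (adjusted p = 4.97e-05, limma) in WT and 2.66 (adjusted p = 1.48e-06) in P1.hMR rats. The list summed to 187 to 513 TPM in control and 228.5 to 440.3 TPM in UVB rats. Lyz2 and Cd68, which were not called, made up 61.4% to 78.6% of it in control and 39.4% to 50.0% in UVB rats. Of 3 neutrophil genes tested, Csf3r rose in both genotypes, by 0.88 and 1.22 (adjusted p = 0.00468 and 2.82e-05), and S100a9 in P1.hMR rats by 0.59 (adjusted p = 0.00282). Csf3r was at no more than 0.40 TPM in control rats and also passed the filter only through the UVB groups. The granule gene Elane was at no more than 0.09 TPM and Mpo at no more than 0.66 TPM. The neutrophil list nevertheless summed to 1563 to 1916 TPM in control rats, far above Csf3r, Elane and Mpo. The paper located S100A9 protein of control human eyelids mainly in the epithelium and in possible immune cells. S100a9 is therefore not a marker of neutrophils alone. Macrophages and neutrophils can express Hdc, and their part in the rise of Hdc was not tested.

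Basophils and eosinophils share genes with mast cells. Of 7 basophil markers 3 were analysed, with sums of 7.23 to 9.83 TPM in control and 6.87 to 10.6 TPM in UVB rats, nearly all from Il3ra and Gata2, and Ccr3 stood at no more than 0.05 TPM. Of 8 eosinophil markers 6 were analysed and none passed the filter, with sums of 0.14 to 0.58 TPM in control and 0.36 to 1.75 TPM in UVB rats, and with Prg3 and Epx at no more than 0.15 TPM.

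Some genes of connective tissue, where mast cells of the eyelid reside, were also higher after UVB. Dcn, Lum, Pdgfra and Thy1 of 7 tested genes were called higher in both genotypes, Lum by 1.89 (adjusted p = 6.35e-06, limma) and 1.88 (adjusted p = 2.35e-07), whereas Col1a1 fell by 0.86 in P1.hMR rats (adjusted p = 0.0017). Col1a1 was also called lower averaged over genotypes. The list summed to 943 to 1581 TPM in control and 1242 to 1994 TPM in UVB rats. Mean sums were 1264 TPM in Control WT and 1524 TPM in UVB WT, and 1493 TPM in Control P1.hMR and 1551 TPM in UVB P1.hMR. With the mean of these genes as a covariate in limma, 1 mast cell gene was called in WT (Tpsb2) and 3 in P1.hMR rats (Cpa3, Tpsab1 and Tpsb2), where 2.59% and 4.59% of all genes were called higher. Cpa3 was then at 0.57 (adjusted p = 0.24) and Tpsab1 at 1.01 (adjusted p = 0.0515) in WT rats. Hdc was at 0.70 (adjusted p = 0.323) in WT and 0.96 (adjusted p = 0.0512) in P1.hMR rats, and Cma1 at 0.59 (adjusted p = 0.179) in P1.hMR rats. As 4 of the covariate's genes themselves rose with UVB, the effect of UVB and the amount of stroma cannot be told apart in this fit.

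Other compartments differed in direction. Of 7 melanocyte genes tested, Pmel, Tyr, Mlana and Slc45a2 fell in WT rats, by 0.76, 0.74, 0.70 and 0.70 (adjusted p = 0.0159, 0.0121, 0.00928 and 0.00436, limma), and none was called in P1.hMR rats. No melanocyte gene was called in the interaction, so a difference in response between the genotypes was not shown. Of all 13105 genes, 522 were called lower in WT rats and 748 in P1.hMR rats. Muscle genes summed to 2137 to 3714 TPM in control and 1653 to 3290.1 TPM in UVB rats, and Mb fell by 0.57 in P1.hMR rats (adjusted p = 0.039) and Ckm fell by 0.60 in the average over genotypes (adjusted p = 0.00934). With muscle genes as the covariate, the same 3 and 5 mast cell genes were called, where 525 and 657 of all 13105 genes were called higher. Of 9 meibocyte genes, Elovl3 rose by 0.55 and 0.77 (adjusted p = 0.0077 and 5.48e-05) and Awat2 fell by 0.65 and 0.52 (adjusted p = 0.000115 and 2.54e-05), and of 4 epithelial genes tested none was called. The part of these compartments in the mast cell gene values was not tested further.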

How the data were processed

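The authors deposited TPM (relative transcript abundance, corrected for gene length and library total; 2 decimals, decimal comma) for 17251 genes, with a column for each of 17 rats and no comparison columns. The submitters' processing notes name FastQC, Trimmomatic, DRAGEN, Picard and build rn7, whereas the published methods name STAR and RSEM; which of them made the table is not given in the sources used here. TPM carries no counts, and the published methods give a range of mapped reads but no value for each library, so precision rests on the spread between rats. Groups were assigned from sample titles. Each library was taken as a separate rat, since the study's reporting summary states that material of both eyes, where used, was pooled into 1 sample. The published methods count the UVB material in eyes but name no such unit for the controls. Whether libraries of both treatments pooled both eyes is therefore not known. The mast cell genes and the other gene lists were chosen with earlier results of these data known.

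Values were analysed as log2(TPM + 1). A gene entered the fit when 3 or more rats reached 1 TPM (13105 genes), and the fit was made in R 4.3.3 with limma 3.58.1, with a mean per group, a variance trend and Benjamini-Hochberg adjustment over all tested genes, and called at an adjusted p under 0.05 with a log2 fold change of 0.5 or more in size. All p-values are two-sided. Single genes were also compared by exact permutation over rats, and pairs by 100000 permutations within groups, in Python 3.11.15 with numpy 2.4.6 and pandas 2.3.3. The fit was tested on simulated data. Named genes were the 8 mast cell genes, every called gene of the other lists, Kit, Kitlg, Fcer1g, Il1rl1, Il33, Gata2, Srgn and Mcpt2, and the 10 genes most correlated with the mean of the tested mast cell genes.

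Alternatives were a pseudocount of 0.1, no filter, a mean of at least 5 TPM, quantile and median-of-ratios scaling, fits on the compared groups only, no trend, sample weights, a replicate block, connective tissue or muscle covariates, other fold thresholds, and leaving out each rat. A planned comparison of protein sequences was not made here.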

Additional observations from a re-analysis of the deposited data

Results flagged for a closer look

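In 5 of 22 combinations of a gene and a group of 4 or 5 rats, the highest rat stood apart from the others by Dixon's criterion. About 1 of 20 groups of independent, normally distributed values would pass it. TPM need not be normally distributed and UVB P1.hMR 4 was marked for more than 1 gene, so 5 of 22 cannot be set against that rate. UVB P1.hMR 4 stood apart for Cpa3 (10.26 TPM, next highest 6.50 TPM) and for Tpsab1 (8.34 TPM, next highest 4.99 TPM). For Tpsb2, Control WT 1 stood apart at 2.65 TPM against 1.40 TPM for the next, and Control P1.hMR 2 at 2.13 TPM against 1.43 TPM. The single value of Mcpt1 above 0, 0.08 TPM in UVB P1.hMR 3, was also marked. In a group otherwise at 0, any single value above 0 passes the criterion, so this mark carries no information. The group of 3 UVB WT rats, which holds the Hdc value of 12.35 TPM, is too small for the criterion.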

How the results depend on the processing

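The number of tested mast cell genes called in each comparison changed by more than 1.5 times under 2 settings. With connective tissue genes as a covariate it was 1 in WT, 3 in P1.hMR rats and 3 averaged over genotypes. Over all 13105 genes, that fit called 339, 601 and 504 higher. With a fold change threshold of 1 on the log2 scale, 3 mast cell genes were called averaged over genotypes, where 133 of all genes were called higher. Leaving out each rat in turn gave 2 to 4 called genes in WT, 5 to 5 in P1.hMR rats and 5 to 5 averaged over genotypes. It gave 0 to 0 in the genotype comparisons and the interaction. Of all 13105 genes, those fits called 437 to 599 higher in WT, 619 to 733 in P1.hMR rats and 562 to 655 averaged over genotypes. Cpa3 in WT was not called without UVB WT 3 (0.56, adjusted p = 0.0735). With replicate numbers as a block, 4 genes were called in WT, Cma1 being added (0.67, adjusted p = 0.0433), and 5 in P1.hMR rats; the block changed no other call. The numbers only name rats: over 22 pairs of rats with the same number, deviations from group means correlated at -0.19 to 0.24, and 6 of 17 rats correlated best with a rat of their own number. A mean of at least 5 TPM left no mast cell gene to test. Sign changes were limited to values that were not called. The Cpa3 difference between control genotypes was -0.012 after quantile normalization and -0.043 with the connective tissue covariate, under which that of Tpsb2 was 0.15 and the interaction of Hdc 0.26; with a pseudocount of 0.1 the within-group r of Cma1 and Tpsb2 was -0.000299. Leaving out each rat took the control genotype difference from -0.084 to 0.11 for Cpa3, from -0.15 to 0.023 for Tpsab1, from -0.17 to 0.083 for Tpsb2 and from -0.095 to 0.018 for Hdc. For Hdc it took the difference between UVB genotypes from -0.58 to 0.44, the averaged genotype difference from -0.30 to 0.21 and the interaction from -0.56 to 0.46. It took the within-group r of Cma1 with Tpsb2 from -0.19 to 0.235 and with Hdc from -0.0741 to 0.407, that of Cpa3 with Hdc from -0.0928 to 0.591, and that of Tpsab1 with Tpsb2 from -0.0175 to 0.194 and with Hdc from -0.0485 to 0.647. The cause was not tested in any of these. With a pseudocount of 0.1, Hdc reached 3.64 in WT rats. TPM of these low genes rests on a number of reads that TPM does not give, which limits the values under 1 TPM most.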
